A study of Mus musculus and Homo sapiens with 9 samples.

Results

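Armc10, Paip2b and Prkcsh are 3 mouse genes whose promoters carried a peak of the hybrid-binding antibody S9.6 in cells without the helicase MCM8 and in cells with less of the helicase DDX5. They were chosen by their peaks: among the CUT&Tag peaks of Mcm8 knockout cells that had no wild-type peak at the same place and that overlapped a Ddx5-knockdown peak with no control-knockdown peak, the peaks at these 3 promoters had the highest -log10 q in the knockout list. Every peak over the 3 gene bodies with 1 kb on each side was then taken from the 5 lists of mouse embryonic fibroblasts (MEFs), and every peak over the human orthologues ARMC10, PAIP2B and PRKCSH from the 4 lists of HEK293, a human embryonic kidney line. This gave 15 peaks of 102544, of which 9 of 44427 were in MEFs and 6 of 58117 in HEK293 cells. Because the MEF values chose the genes, those values are a description and no test was made on them. The HEK293 peaks, the DNA sequence and the gene arrangement had no part in the choice.

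An R-loop forms when RNA pairs with its DNA template and leaves the other DNA strand single. R-loops are common at active promoters rich in CpG, and G-rich RNA on C-rich template favours them. MCM8 is a helicase of the minichromosome maintenance family that works in homologous recombination, and DDX5 is an RNA helicase known to unwind RNA-DNA hybrids. ARMC10 is an armadillo-repeat protein of mitochondria and the endoplasmic reticulum, PAIP2B holds back translation by binding poly(A)-binding protein, and PRKCSH is the beta subunit of glucosidase II, which trims the sugars of new glycoproteins in the endoplasmic reticulum.

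CUT&Tag uses an antibody to direct a transposase, and the tagged DNA is sequenced. The S9.6 antibody, which binds RNA-DNA hybrids, was applied to Mcm8 wildtype (WT) MEFs, to Mcm8 knockout (KO) MEFs, in which CRISPR removed an exon and shifted the reading frame, to shControl MEFs and to shDdx5 MEFs, where adenovirus delivered the hairpin RNA. A further library of wildtype MEFs had no primary antibody. The MEFs were cultured from mid-gestation embryos. HEK293 cells, all of the wildtype genotype, had mouse IgG, anti-FLAG after a FLAG-MCM8 plasmid, S9.6, or S9.6 after a plasmid with the label RNH1. The study uses this name for RNase H1, which cuts the RNA strand of hybrids, and the library is written S9.6+RNH1. Each group held 1 library, so a difference compares these libraries and not the conditions, and every interval covers counting error only.

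The 4 S9.6 libraries of MEFs were of similar depth, with a lowest local background of 1.306 to 1.673 fragments, and the no-antibody library was far shallower at 0.1915. Their lists held 6481 (WT), 9605 (KO), 12259 (shControl), 11768 (shDdx5) and 4314 (no antibody) peaks. Peak lists hold no expression values, and the labelled cell type could not be checked with them. Of 8 fibroblast markers, between 2 and 4 had a peak in the S9.6 lists and 1 in the no-antibody list. Of 6 markers of other cell types, 1 had a peak in KO and in the no-antibody list, the same gene, Cdh5, an endothelial cadherin. Of all protein-coding genes, 19.2% to 32.7% had a peak in the S9.6 lists and 7.99% without antibody. The markers are too few to be set apart from those shares.

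The stretches of DNA just upstream of the 3 mouse genes are shown because the KO summits of Armc10 and Prkcsh and the shDdx5 summit of Paip2b lie in them. They are read from the mm10 reference in the direction of the named gene and end at the base before its first annotated transcription start site (TSS). Capitals mark matches, on either strand, to GGGG or to the GC box GGGCGG, which overlap each other, and to the CCAAT box. The first is the whole gap between the start sites of Armc10 and Fbxl13 (chr5:21645635-21645812, plus strand), the second is 250 bases before Paip2b (chr6:83831742-83831991, minus strand), and the third is the whole gap between Prkcsh and Ccdc151 (chr9:22002635-22002805, plus strand). No annotated exon overlaps any of them.
Armc10: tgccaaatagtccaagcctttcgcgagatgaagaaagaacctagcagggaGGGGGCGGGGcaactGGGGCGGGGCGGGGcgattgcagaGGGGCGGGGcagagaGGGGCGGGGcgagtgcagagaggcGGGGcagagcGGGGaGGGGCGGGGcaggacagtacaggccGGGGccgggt
Paip2b: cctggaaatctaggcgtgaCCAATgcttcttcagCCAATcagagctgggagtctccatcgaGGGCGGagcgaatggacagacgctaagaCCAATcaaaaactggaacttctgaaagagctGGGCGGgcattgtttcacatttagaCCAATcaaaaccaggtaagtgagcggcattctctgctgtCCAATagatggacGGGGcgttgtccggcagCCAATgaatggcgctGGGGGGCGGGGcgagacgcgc
Prkcsh: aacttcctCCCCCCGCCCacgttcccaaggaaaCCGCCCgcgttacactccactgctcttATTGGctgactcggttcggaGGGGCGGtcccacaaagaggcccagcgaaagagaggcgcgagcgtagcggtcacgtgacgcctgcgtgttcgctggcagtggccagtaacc

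The 3 stretches differ in what they hold. The Armc10 gap has a GC content of 70.8% and 6 GC boxes, all of them reading GGGCGG on the Armc10 strand. The Paip2b stretch has 6 CCAAT boxes on the strand of the gene, between 231 and 32 bases before the TSS, and 3 GC boxes. The Prkcsh gap has 3 GC boxes on both strands and 1 CCAAT box, which lies on the opposite strand.

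At Armc10 (chromosome 5, 21645813 to 21662694, mm10, plus strand), the KO list had a peak of 466 bp at 21645784 to 21646249. Its fold enrichment over the local background was 7.35 and its -log10 q was 10.4. The shDdx5 list had a peak of 612 bp at 21645741 to 21646352 with a fold of 7.82 and a -log10 q of 14.3. The WT, shControl and no-antibody lists had no peak over the gene. Both peaks covered 4 of the 5 annotated start sites of Armc10. The KO summit lay at -12 bp from the first TSS, where negative values are upstream, and the shDdx5 summit at 47 bp, in the 5′ untranslated region (UTR) and 59 bp from the KO summit. The KO peak lay wholly within the shDdx5 peak. By p, 0.593% of KO peaks and 0.756% of shDdx5 peaks were stronger. The study itself shows browser tracks of Armc10 as its example of a peak found in KO and not in WT.

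At Paip2b (chromosome 6, 83805401 to 83831741, minus strand), the KO peak spanned 558 bp from 83831451 to 83832008 with a fold of 6.28 and a -log10 q of 8.47. The shDdx5 peak was the longer, at 753 bp from 83831262 to 83832014, and the weaker, with a fold of 5.08 and a -log10 q of 5.77. No other list had a peak over the gene. The summits lay on either side of the first TSS, at 69 bp in the 5′ UTR in KO and at -165 bp in shDdx5, which places the latter among the CCAAT boxes printed above. The summits were 234 bp apart although the KO peak lay wholly within the shDdx5 peak. By p, 1.12% of KO peaks and 6.0% of shDdx5 peaks were stronger.

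At Prkcsh (chromosome 9, 22002806 to 22014222, plus strand), the promoter peaks were the shortest of the 3 genes. The KO peak had 265 bp, from 22002660 to 22002924, a fold of 6.26 and a -log10 q of 8.43. The shDdx5 peak had 330 bp, from 22002692 to 22003021, a fold of 4.65 and a -log10 q of 4.2. The KO summit at -60 bp was in the gap shared with Ccdc151, and the shDdx5 summit at 60 bp was in the 5′ UTR. By p, 1.13% of KO peaks and 11.3% of shDdx5 peaks were stronger.

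**Figure D1:**
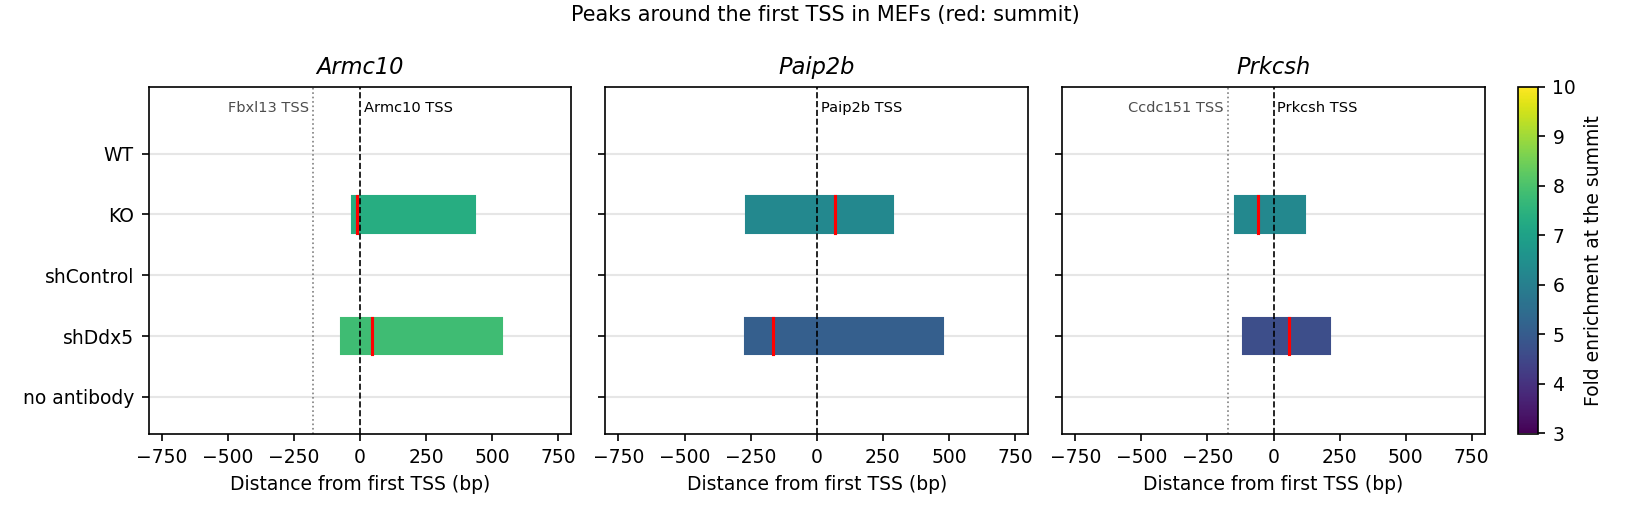
Peaks around the first TSS of each gene in the 5 MEF lists. The x axis is the distance from the TSS in bp along the gene, each row is 1 library, each bar is a peak coloured by its fold enrichment, the red line is its summit, and the dotted line is the TSS of the divergent neighbour. The KO and shDdx5 lists have a bar over each of the 3 start sites, with folds from 4.65 to 7.82, and the other 3 lists have none in the window.

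Prkcsh also carried weak peaks inside the gene. The KO list had one over an intron and part of an exon (22010316 to 22010565, fold 2.98, -log10 q 0.577), the shControl list had one with its summit in a coding exon (22010958 to 22011238, fold 3.18, -log10 q 0.659), and the no-antibody list had one over the last exon, with its summit in the 3′ UTR (22014132 to 22014481, fold 3.19, -log10 q 0.516). The pileups, that is the numbers of fragments over the summit, were 9, 9 and 3. None of these peaks reached a q of 0.05. They lay between 7510 and 11675 bp from the first TSS, so they did not touch the promoter.

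The counts of genes give the background for this. Of the protein-coding genes, 19.2% had a peak over the gene body with 1 kb on each side in WT and 26.1% in KO. The share was 27.8% for shControl, 32.7% for shDdx5 and 7.99% without antibody. A KO and a shDdx5 peak with none in the other 3 lists was found for 3.35% of genes, 735 of 21938, against 0.989% for WT and shControl only, 1.67% for WT and shDdx5 only and 1.81% for KO and shControl only. These patterns were not corrected for the different shares of the single lists, so their order is not read as a result. Armc10 and Paip2b were among the 735. Prkcsh was not, because of its weak shControl and no-antibody peaks, and it was among them with peaks of a q of 0.05 or lower (723 genes) or within 1 kb of a TSS (643 genes). Since the rule used these lists, nothing is read from the count of members.

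The number of fragments behind the folds was small. At the KO summit it was 22 (95% Poisson interval 13.8 to 33.3) at each of the 3 promoters, and since the fold is (pileup + 1)/(background + 1), it was higher at Armc10, where the local background was 2.13 fragments against 2.67 at Paip2b and 2.68 at Prkcsh. At the shDdx5 summit it was 28 (18.6 to 40.5) at Armc10, 19 (11.4 to 29.7) at Paip2b and 16 (9.15 to 26.0) at Prkcsh. Scaled for depth by the lowest background of each list, the shDdx5 pileup was 0.994 times that of KO at Armc10 (0.548 to 1.82), 0.674 times at Paip2b (0.345 to 1.31) and 0.568 times at Prkcsh (0.279 to 1.13). These ratios are a description, since the peaks were chosen for a high KO value, and nothing is read from them about a difference between the libraries.

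An absent peak was set against what the list could have called. The peaks were chosen for a high KO value and for absence in WT and shControl, and the intervals do not cover that choice. Why the peaks were absent was not tested. At the depth of the WT library the KO pileup corresponds to 25.7 fragments (16.1 to 38.9), and a p of 0.001 needed 9 at Armc10 and 10 at Paip2b and Prkcsh. At the depth of shControl the shDdx5 pileups correspond to 24.2 (16.1 to 35.0), 16.4 (9.89 to 25.6) and 13.8 (7.9 to 22.5), where 8, 9 and 8 were needed. These values give the call limit for pileups of that size, provided the region was long enough to be called. The KO size was itself chosen to be high, so no reason for an absent peak is read from them. For shDdx5 the low end of the interval was just under the need of shControl at Prkcsh. Set against shControl, the KO pileup corresponds to 24.4 fragments, where 8 to 10 were needed. In the no-antibody library the KO pileup corresponds to 3.23 fragments and the shDdx5 pileups to 3.21, 2.17 and 1.83, where 3 were needed. The depth of that library was too low to show whether the promoters are free of background signal.

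**Figure D2:**
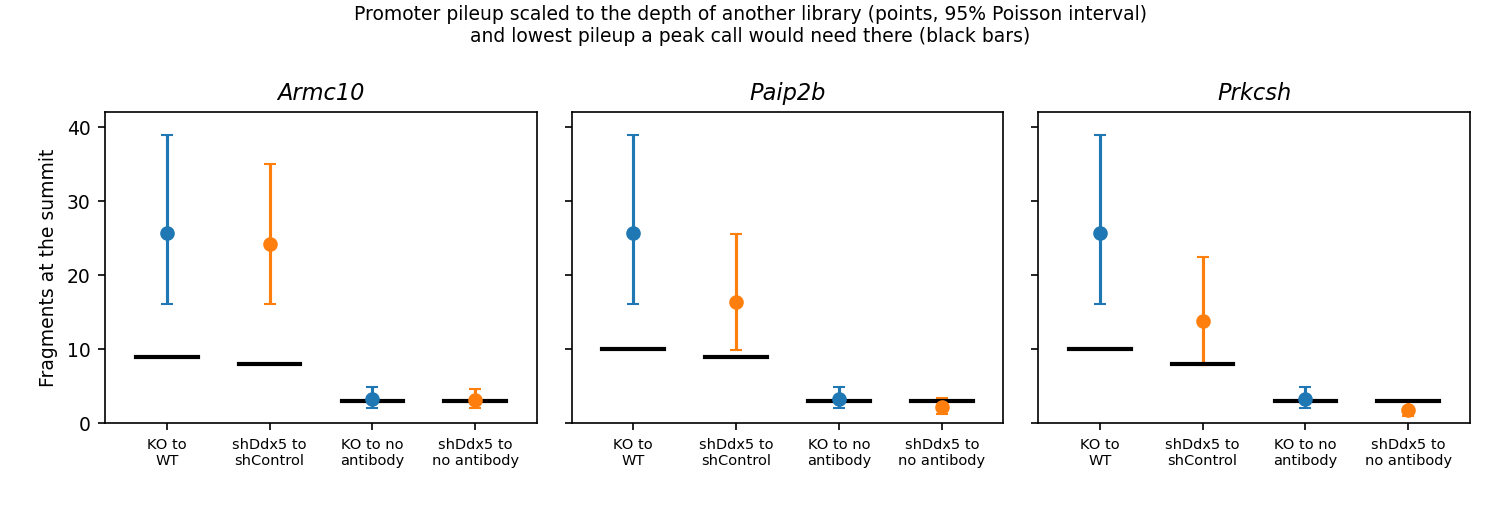
Fragments at the promoter summits in KO (blue) and shDdx5 (orange), scaled to the depth of the library named under each point, with 95% Poisson intervals. Black bars give the lowest pileup that a p of 0.001 would need there, between 8 and 10 fragments in WT and shControl and 3 without antibody. The points stand above the bars for WT and shControl and close to them, on either side, for the no-antibody library.

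The neighbourhood of the genes was not empty in the lists without a promoter peak. The nearest peak to the Armc10 TSS was 55.5 kb away in WT and 55.6 kb in shControl, and in both it was at the promoter of Napepld, the adjoining gene downstream, which encodes the phospholipase D that releases N-acylethanolamines. Napepld had a promoter peak in all 4 S9.6 lists, with a fold of 5.93 for WT, 4.12 for KO, 4.53 for shControl and 6.72 for shDdx5. The WT list had the Napepld peak and none at Armc10, and the choice of genes required that absence. Its reason was not tested. The nearest peaks to Paip2b were 82.5 kb away in WT and 36.3 kb in shControl. The nearest WT peak to Prkcsh was 46.8 kb away. Elavl3, the neuronal RNA-binding protein gene downstream of Prkcsh, had no promoter peak, only weak peaks inside the gene in KO (fold 3.12) and shControl (fold 3.34) beside the no-antibody peak it shares with the end of Prkcsh.

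Armc10 and Prkcsh each share their promoter with a gene on the other strand. The TSS of Fbxl13, an F-box protein gene, lies 179 bp upstream of that of Armc10, and the TSS of Ccdc151, which encodes a docking factor for the outer dynein arms of cilia, lies 172 bp upstream of that of Prkcsh. Paip2b has no other annotated TSS within 5 kb. The arrangement is the same in human, with FBXL13 at 42 bp from ARMC10, ODAD3 (the human Ccdc151) at 106 bp from PRKCSH and no gene near PAIP2B. Divergent start sites within 1 kb were found for 9.44% of mouse protein-coding genes, and for 21.8% of those with a KO peak and 19.9% of those with a shDdx5 peak within 1 kb of a TSS. A count of 2 in 3 genes says little beside those shares. At both pairs the KO and shDdx5 peaks began between the 2 start sites and extended into Armc10 or Prkcsh, and they lay within 1 kb of both genes. They were the only peaks of Ccdc151. Fbxl13 had further peaks far inside the gene, with a fold of 3.39 in WT, 4.0 and 4.51 in KO and 4.67 in shDdx5.

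The base composition under the peaks was that of ordinary promoter peaks in part. The Armc10 KO peak had a GC content of 67.6%, higher than 73.1% of the 3255 KO peaks within 1 kb of a protein-coding TSS, and the Paip2b and Prkcsh peaks had 64.0% and 60.4%, beside a median of 62.9%. The ratio of observed to expected CpG was 0.711 at Armc10, near the median of 0.732, 0.896 at Paip2b and 1.04 at Prkcsh, the last higher than 97.0% of those peaks. The shDdx5 peaks gave the same order, with 0.674, 0.856 and 1.09. The 3 promoters thus share no single composition: Armc10 had the highest GC content and the lowest CpG ratio, and Prkcsh the reverse.

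**Figure D3:**
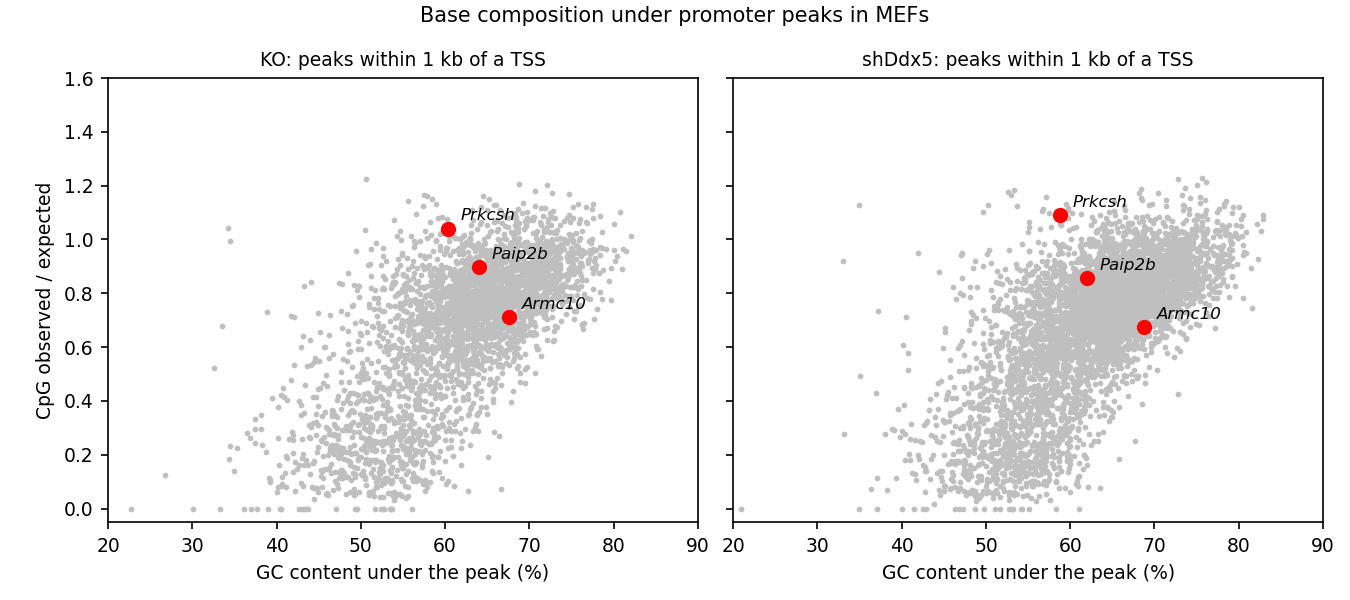
GC content in percent (x axis) and ratio of observed to expected CpG (y axis) under each peak within 1 kb of a protein-coding TSS in the KO list (left) and the shDdx5 list (right). Grey points are peaks and red points are the peaks of the 3 genes. In both lists Prkcsh lies at the upper edge of the cloud (ratios of 1.04 and 1.09) and Armc10 near its middle in CpG ratio (0.711 and 0.674).

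In the RefSeq promoters of GRCm38.p6, 250 bases before to 50 after the start of each gene, all 3 genes were found among 20150 promoters of protein-coding genes. The GC content was 64.7% for Armc10, 57.0% for Paip2b and 58.0% for Prkcsh, beside a median of 57.0%, and the CpG ratio was 0.571, 0.964 and 1.15, beside a median of 0.588. RefSeq starts Armc10 and Prkcsh further downstream than the first TSS used above, so these windows differ from the printed stretches. The GC box was in 47.8% of all promoters, the CCAAT box in 37.8%, GGGG in 89.3%, the TATA box (TATAAA) in 12.1%, the ETS motif CCGGAAG in 11.9%, the NRF1 motif in 6.6% and the cyclic AMP element TGACGTCA in 2.31%. Armc10 had 3 GC boxes, 8 positions of GGGG and 2 ETS motifs. Paip2b had 3 GC boxes, 5 positions of GGGG and 6 CCAAT boxes, and 18 promoters (0.0893%) held 6 or more CCAAT boxes. Prkcsh had no match to any of the 7 motifs in its window, its CCAAT and GC boxes lying further upstream. None of the 3 had a TATA box, an NRF1 motif or a cyclic AMP element. A match is a description of the letters and not of a bound factor.

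Strand asymmetry also differed between the genes. The G over C skew, (G - C)/(G + C) on the strand of the gene, was 0.381 in the 300 bases upstream of the first Armc10 TSS, higher than at 98.6% of 21937 protein-coding genes, whose median was -0.00935. It was 0.115 in the 300 bases downstream, beside a median of 0.0539. Paip2b had 0.0964 upstream and -0.014 downstream, and Prkcsh -0.0508 and -0.0539. The human orthologue ARMC10 had -0.0825 upstream, so the strong skew of the mouse gene was not found in that human window. The windows are not alike: the TSS of the divergent neighbour lies 179 bp upstream in mouse and 42 bp in human. More of the human window therefore lies beyond the neighbour's TSS.

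In HEK293 cells the orthologues of the genes with divergent neighbours had S9.6 peaks and PAIP2B had none. The human lists had a peak over the gene body with 1 kb on each side for 43.6% of protein-coding genes in S9.6, 37.0% in S9.6+RNH1, 28.4% in FLAG-MCM8 and 26.5% in IgG. With 2 of 3 genes in S9.6, 2 of 3 in S9.6+RNH1, 0 of 3 in FLAG-MCM8 and 1 of 3 in IgG, the orthologues are too few to be set apart from those shares.

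At ARMC10 (chromosome 7, 103074881 to 103099759, hg38, plus strand), the S9.6 peak spanned 103074588 to 103075144 with a fold of 6.76 and a pileup of 22 (13.8 to 33.3). The S9.6+RNH1 peak was shorter, from 103074867 to 103075106, with a fold of 5.11 and a pileup of 19 (11.4 to 29.7). Both had their summit at 199 bp from the first TSS, at the same base. Scaled for depth, the S9.6+RNH1 pileup was 0.794 times that of S9.6 (0.407 to 1.54). IgG had a peak just outside the gene window, 1157 bp upstream of the TSS (103073321 to 103073724, fold 3.91), and it did not overlap either S9.6 peak.

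PRKCSH (chromosome 19, 11435284 to 11450968, plus strand) had the strongest peak of the 3 human genes. The S9.6 peak spanned 11434876 to 11435574, with a fold of 9.8, a -log10 q of 33.0 and a pileup of 52 (38.8 to 68.2), and 0.944% of S9.6 peaks were stronger by p. The S9.6+RNH1 peak lay wholly within it (11434895 to 11435485) with a fold of 5.98, a -log10 q of 15.3 and a pileup of 37 (26.1 to 51.0). The scaled S9.6+RNH1 pileup was 0.654 times that of S9.6 (0.417 to 1.02). Neither ratio was beyond counting error, and at each promoter the lower fold was in S9.6+RNH1. Whether RNase H1 was active in that library was not tested here. The study used this group to check the specificity of its R-loop mapping and reported lower relative R-loop signals in it than in S9.6.

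PAIP2B (chromosome 2, 71182738 to 71227103, minus strand) had no S9.6 peak within 49.6 kb of its TSS and no S9.6+RNH1 peak within 42.3 kb. Its 2 peaks were both in the IgG list and in an intron. The nearer lay 25984 bp from the TSS (71200806 to 71201119, fold 5.35), and the farther spanned 71199850 to 71200168 (fold 4.31). The FLAG-MCM8 list had no peak at any of the 3 promoters, the nearest lying 98.4 kb from ARMC10, 96.6 kb from PAIP2B and 9.93 kb from PRKCSH. The lowest pileup called in that list was 10 fragments, so weaker binding of the tagged protein would not have been listed.

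**Figure D4:**
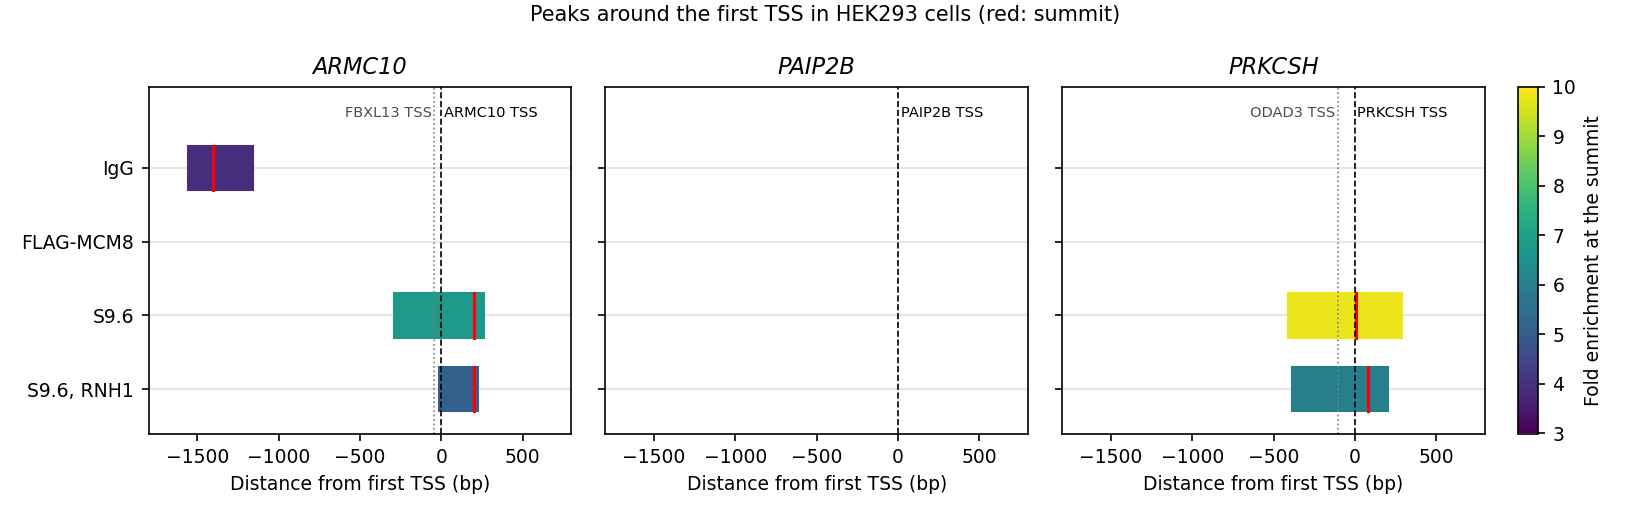
Peaks around the first TSS of the human orthologues in the 4 HEK293 lists, drawn as for the MEF lists. S9.6 and S9.6+RNH1 (the row S9.6, RNH1) have peaks over the start sites of ARMC10 (folds 6.76 and 5.11) and PRKCSH (9.8 and 5.98), FLAG-MCM8 has none, and PAIP2B has no peak in the window.

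The human stretches upstream of the first TSS are shown for comparison with the mouse ones, at the promoters with S9.6 peaks (ARMC10, chr7:103074840-103074880, the gap to FBXL13, and PRKCSH, chr19:11435179-11435283, the gap to ODAD3, both on the plus strand) and at the one without (PAIP2B, chr2:71227104-71227353, minus strand). They are read from hg38 with the same capitals.
ARMC10: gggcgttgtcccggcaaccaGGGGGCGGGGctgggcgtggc
PRKCSH: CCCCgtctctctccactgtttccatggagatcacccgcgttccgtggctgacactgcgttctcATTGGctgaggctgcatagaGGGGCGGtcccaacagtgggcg
PAIP2B: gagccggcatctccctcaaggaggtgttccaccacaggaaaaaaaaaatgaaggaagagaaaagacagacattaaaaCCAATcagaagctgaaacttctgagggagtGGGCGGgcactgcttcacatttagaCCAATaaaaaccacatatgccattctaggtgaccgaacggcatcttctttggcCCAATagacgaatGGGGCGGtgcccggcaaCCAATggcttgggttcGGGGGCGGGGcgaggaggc
Like Prkcsh, PRKCSH had a reversed CCAAT box followed by a GC box after 16 bases, with a different sequence in between, at 42 bases before its TSS against 111 in mouse. The ARMC10 gap, only 41 bases long, held 1 GC box. PAIP2B had 4 CCAAT boxes and 3 GC boxes, all on the strand of the gene as in mouse, and no S9.6 peak.

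The rank of the 3 genes among similar peaks was as follows. Of 8021 KO peaks without a WT peak, 838 overlapped a shDdx5 peak without a shControl peak, and 65.9% of these had their summit within 1 kb of a protein-coding TSS. Their median -log10 q was 1.41 in KO and 2.09 in shDdx5. In KO the 3 genes hold the first 3 places by construction, while by the shDdx5 peak they stood at 1, 30 and 118. Just outside the choice was the promoter of Zswim8, a substrate receptor of a ubiquitin ligase (chromosome 14, 20721495 to 20721947), with a KO -log10 q of 7.31 against 8.43 at Prkcsh just inside. Its KO pileup was also 22, and its shDdx5 -log10 q of 4.98 was above the 4.2 of Prkcsh.

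**Figure D5:**
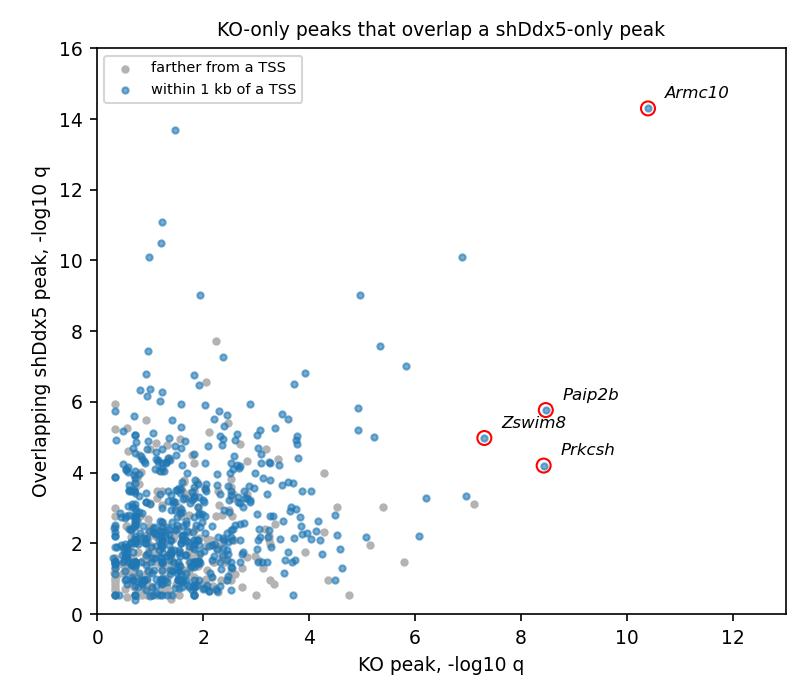
The -log10 q of the KO peak (x axis) and of the overlapping shDdx5 peak (y axis) for the 838 peaks described in the text. Blue points lie within 1 kb of a protein-coding TSS, grey points farther away, and red circles mark Armc10, Paip2b, Prkcsh and Zswim8, the first place outside the choice. Armc10 has the highest value on both axes, 10.4 and 14.3.

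The genes whose pattern was most like that of Armc10 and Paip2b were ranked by the smaller of the KO and shDdx5 -log10 q, among the 418 genes with overlapping KO and shDdx5 peaks and no peak in the other 3 lists. Armc10 was first with 10.4 and Paip2b the third with 5.77. The 5 other leading genes were Osbp, an oxysterol-binding protein gene (6.89), Zdhhc5, a palmitoyltransferase gene (5.34), Prdx1, a peroxiredoxin gene (5.02), Zswim8 (4.98) and Rnf122, a RING-finger protein gene (4.97). Their KO folds were between 5.42 and 5.8, under those of the 3 genes, which were chosen by their KO peaks. Their shDdx5 folds, between 4.48 and 6.35, lay on both sides of the 5.08 of Paip2b and the 4.65 of Prkcsh. In 360 of the 418 genes (86.1%) the KO summit was within 1 kb of a TSS of the gene.

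The direct partners and relatives of PRKCSH and PAIP2B examined were Ganab, Paip2, Paip1 and Pabpc1. None had peaks in KO and shDdx5 only, a pattern of 3.35% of all protein-coding genes, so nothing is read from its absence. Ganab, the catalytic subunit that PRKCSH pairs with, had a peak in shControl only (fold 3.64). Paip2, the close relative of Paip2b, had peaks in shControl only, the stronger with a fold of 3.77 within 1 kb of its TSS, and Paip1 had none in any MEF list. Pabpc1, the poly(A)-binding protein that PAIP2B binds, had a promoter peak in KO (fold 3.72), shControl (4.18) and shDdx5 (4.36). In HEK293 cells GANAB was peaked in S9.6+RNH1 alone, PAIP2 in S9.6 and S9.6+RNH1, PAIP1 in IgG and S9.6+RNH1, and PABPC1 in the 3 lists other than IgG.

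In the wider pathways, 2 of 14 genes of the glucosidase and calnexin cycle had peaks in KO and shDdx5 only (Calr and Uggt1), as did 1 of 14 genes of the poly(A)-binding and cap complex (Pabpn1) and 2 of 15 genes of mitochondrial dynamics and transport (Mfn2 and Rhot1), beside the 3.35% of all protein-coding genes. The numbers are too small to set the lists apart. Calr, the lectin chaperone calreticulin, had overlapping promoter peaks with folds of 4.23 in KO and 4.35 in shDdx5. Pabpn1, the nuclear poly(A)-binding protein, had 4.8 and 5.4, and Rhot1, a GTPase of mitochondrial transport, 4.16 and 3.92, both at the TSS. In Mfn2, a fusion GTPase of mitochondria, and Uggt1, the folding sensor that adds glucose back, the KO and shDdx5 peaks lay at different places, with folds from 3.08 to 3.52. Counted by list in the order WT, KO, shControl, shDdx5 and no antibody, the first group had peaks at 6, 6, 7, 7 and 1 genes, the second at 3, 4, 5, 9 and 0, and the third at 3, 5, 3, 5 and 0. The shares of all protein-coding genes in that order were 19.2%, 26.1%, 27.8%, 32.7% and 7.99%.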

How the data were processed

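The submitters' notes name Trimmomatic, Bowtie2 and MACS2 2.1.2, and the builds mm10 and hg38. The authors called peaks for each library on its own with no input for the MEFs from the no-antibody library. For each peak the authors deposited the enrichment at the summit as a fold (a ratio), the -log10 of its p and q, a score that repeats the -log10 p and was not used, and the summit as an offset from the peak start. By their values, MEF peaks had a p of 0.001 or lower and HEK293 peaks of 1e-05 or lower, and MEF and HEK293 lists were never compared.

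Here peaks overlapping a gene body (GENCODE M21 or 44) with 1 kb on each side were taken, at 1 bp in common. Pileup and background were solved from fold and Poisson p, a step tested on simulated data. Depth is relative, from the lowest background. Read totals were not used here. The genes, the gene lists, the motifs and the alternatives were chosen with earlier results of these data known. Named genes were the 3 genes, their orthologues, adjoining genes, direct partners, genes of the lists with peaks in KO and shDdx5 only, and the 5 genes of most similar pattern. Zswim8 is also named as the next peak by the choice. Sequences came from GRCm38.p6 (mm10) and hg38. With 1 library per group no test was made. Python 3.11.15, numpy 2.4.6, pandas 2.3.3, scipy 1.17.1, matplotlib 3.10.9, pysam 0.24.0 and samtools 1.23.1 were used.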

Additional observations from a re-analysis of the deposited data

How the results depend on the processing

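With 1 library per group no library could be left out. No paired analysis was possible because each group holds 1 library and no test was made. The promoter peaks of the 3 mouse genes and of ARMC10 and PRKCSH were counted under every alternative tried: a fold of at least 4, a q of 0.05 or lower, 5 kb around the gene, 1 kb around a TSS only and the summit inside the window. The mouse KO peaks were chosen for a high -log10 q. The cutoffs of q and fold could hardly remove these KO peaks, and nothing is read from their being kept. The peaks inside Prkcsh were not counted under every alternative: with a fold of at least 4, a q of 0.05 or lower or within 1 kb of a TSS, its count went from 2 to 1 in KO and from 1 to 0 in shControl and without antibody. With 5 kb, the KO count of Prkcsh went from 2 to 3 and ARMC10 gained 1 IgG peak, and within 1 kb of a TSS PAIP2B had 0 IgG peaks. The KO and shDdx5 promoter peaks also had at least 50% of both peaks in common at each of the 3 genes. With each fold taken at the lowest background of its list, the pileup fell out of its interval at Paip2b (13.5) and Prkcsh (13.4) in KO and at PRKCSH in S9.6 (31.1) and S9.6+RNH1 (19.8).

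The share of genes with peaks in KO and shDdx5 only was 3.3% with a q of 0.05 or lower, 1.74% with a fold of at least 4, 2.93% within 1 kb of a TSS, 2.29% with 6481 peaks from each S9.6 list and 1.61% of all annotated genes. It was 3.68% without use of the no-antibody list, an alternative chosen after seeing the data. Within 1 kb of a TSS the shares of genes with a peak were 11.6% in WT, 16.4% in KO, 15.2% in shControl, 23.6% in shDdx5, 1.34% without antibody, 6.39% in IgG and 12.6% in FLAG-MCM8. With a q of 0.05 or lower they were 8.67% in WT, 13.4% in KO, 12.0% in shControl, 24.7% in shDdx5 and 0.798% without antibody, so that shDdx5 stood further above shControl than with every deposited peak (32.7% and 27.8%). Among all annotated genes they were 9.4% in WT, 12.9% in KO, 14.0% in shControl, 16.2% in shDdx5, 4.11% without antibody, 13.7% in IgG and 13.9% in FLAG-MCM8. For S9.6 it was 20.1% and for S9.6+RNH1 17.0%. The alternatives differ in the peaks, windows or genes counted, and why each share moved was not tested. The q cutoff did not thin the lists evenly: it kept 60.49% of the shDdx5 peaks and 28.08% of the shControl peaks.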
